A study of Mus musculus with 9 samples.

Results

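The 9 apolipoprotein genes Apoa1, Apoa2, Apoa4, Apoa5, Apob, Apoc1, Apoc3, Apoe and Apoh were followed through a map of the RNA bound by Argonaute (AGO) in mouse liver. They were chosen by gene symbol: every region of the map that carried one of the 9 names was taken, which gave 107 regions of 92645. MicroRNAs act while loaded into Argonaute, and CLIP-seq sequences the RNA that ultraviolet light has crosslinked to it. The libraries came from liver of mice aged 6 weeks, 5 floxed littermate controls (3 females, 2 males) and 4 miR-122 knockout (KO) mice (1 female, 3 males), with 1 mouse per library. The Cre driver, and so the cells in which the floxed gene was removed, is not stated in the labels. The comparison asks which RNAs lose or gain AGO when miR-122, a microRNA typical of hepatocytes, is deleted.

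Apolipoproteins are the protein part of the particles that carry fat and cholesterol in blood, and the liver makes most of them. Apob is the scaffold of very low density and low density lipoprotein, Apoa1 and Apoa2 are the main proteins of high density lipoprotein, and the small exchangeable members regulate the lipases and receptors that clear the particles. Mice and primates that lack miR-122 activity are known for low plasma cholesterol.

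A microRNA finds its target through its seed, the bases 2 to 8 from its 5′ end, and a region was listed in the map with each microRNA family whose seed match it held. The match classes run from 6mer through 7mer-A1 and 7mer-m8 to 8mer, the longest. The mature microRNAs below belong to the families whose matches lie in the regions described here. Each is written 5′ to 3′ with the seed in capitals, from RefSeq on GRCm38.p6; the sequence of miR-122 is not printed here. No 2 of the 12 share a seed. The first 3 belong to families with matches in the 2 regions of Apoh where most of its reads lay.
mmu-miR-130a-3p: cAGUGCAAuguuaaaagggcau
mmu-miR-19b-3p: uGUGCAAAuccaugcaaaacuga
mmu-miR-17-5p: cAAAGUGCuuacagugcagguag
The next 3 had matches in regions of Apob with many reads, in a region of Apoc3 that fell, and in a region of Apoe that fell.
mmu-miR-23a-3p: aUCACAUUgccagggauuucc
mmu-miR-126a-3p: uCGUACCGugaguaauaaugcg
mmu-miR-193a-3p: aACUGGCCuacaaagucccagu
The last 6 had matches in the most covered regions of Apob (miR-30), Apoa2 (miR-16 and miR-148a) and Apoa5 (let-7, miR-24 and miR-125).
mmu-miR-30a-5p: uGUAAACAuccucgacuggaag
mmu-miR-16-5p: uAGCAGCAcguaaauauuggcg
mmu-miR-148a-3p: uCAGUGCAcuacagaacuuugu
mmu-let-7a-5p: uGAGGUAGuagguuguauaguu
mmu-miR-24-3p: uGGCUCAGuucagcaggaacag
mmu-miR-125a-5p: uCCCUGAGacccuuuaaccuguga
On GRCm38.p6 the mature forms of the families in the Apoh regions lie at chr2:84741116-84741137 (minus strand) for miR-130a, chr14:115044358-115044380 (plus) for miR-19b, which has a second copy on chromosome X, and chr14:115043684-115043706 (plus) for miR-17. Those of miR-23a, miR-126a and miR-193a lie at chr8:84208563-84208583, chr2:26591402-26591423 and chr11:79712009-79712030, all on the plus strand.

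Library totals ran from 445912 to 1170130 reads, so that 3 reads are worth 2.56 to 6.73 CPM in a library. Levels are given as CPM, reads scaled to a common library size by TMM (which rests on the bulk of genes or regions), with SD over 5 controls and 4 KO mice, and tests are edgeR's quasi-likelihood test with sex as a term, adjusted over all genes or regions tested. All KO libraries stood apart by reads of neuronal genes: 20 of 23 neuron markers were in the map, all 15 tested were higher in KO, and their summed level was 62.5 to 74.5 CPM in controls and 1875 to 9913 CPM in KO, highest in KO replicate 4. Of those 20 markers, 7 had no read in any control, among them Syn1, Gria2 and Mapt. The liver's own markers were present throughout, but of 16 hepatocyte markers 10 were lower and 1 higher in KO (median log2 fold change -0.79, against 0.05 over all 8856 genes tested), and their sum was 38503 to 54948 CPM in controls and 26630 to 31886 CPM in KO. Of 7 bile duct markers 4 were in the map (not Krt19, Epcam or Cftr), at a sum of 42.6 to 67.5 CPM in controls and 108 to 138 CPM in KO, with Spp1 higher (log2 fold change 2.65, adjusted p = 4.96e-05). Over all 8856 genes 23.7% were called lower and 21.2% higher, which is the background for these marker counts. Macrophage markers (5 of 11) and stellate cell markers (3 of 7) were partly higher, with no member of either list lower, and none of 6 endothelial markers passed. Their part in the results below was not tested. In bulk liver, fewer hepatocytes and less AGO-bound RNA per hepatocyte cannot be told apart, and neither can a change in a transcript's amount and in its binding, since total RNA was not analysed here.

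AGO-bound reads on the apolipoprotein genes were lower in KO liver as a family. The 107 regions took 1.26%, 1.31%, 1.41%, 1.19% and 1.27% of the counts of the 5 controls and 0.874%, 0.900%, 0.797% and 0.659% of those of the 4 KO libraries. The groups did not overlap, and the mean went from 1.29% ± 0.0831 to 0.807% ± 0.108. In the 8 regions with a miR-122 match the share was 9.42-fold lower, 0.154% ± 0.0161 against 0.0163% ± 0.00359. In the 99 regions without one it was 1.13% ± 0.0775 against 0.791% ± 0.105, again with no overlap. Over all regions of the map, those with a miR-122 match took 19.5% ± 1.09 of counts in controls and 3.55% ± 0.382 in KO.

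Per gene, 7 of the 9 were called lower in KO and 0 higher. The background is 44.9% of 8856 genes called in either direction, 23.7% lower and 21.2% higher. When the library scaling was taken from genes without a miR-122 region, the share of rises among called genes went from 47.2% to 30.5%. That scaling moved the median of all genes from 0.05 to -0.24 (log2), and scaling by library totals moved it to 0.19. With the scaling from genes without a miR-122 region 8 of the 9 genes were lower, Apoa2 being added. Of all 8856 genes 2787 were lower on that scaling, against 2100 in the main test. With library totals or upper quartile factors 4 of the 9 genes were lower (Apoa1, Apoc3, Apoe and Apoh), against 1789 and 1874 of all 8856. Without KO replicate 4 there were 6, Apob being lost (adjusted p = 0.0738), against 2299 of 9210 genes. The same 4 were the count in males alone (1639 of 9440 genes lower) and without control replicate 5 (1776 of 8746), KO replicate 1 (1753 of 8707) or KO replicate 3 (1857 of 8674). The median log2 fold change of the 9 genes was -0.80. In 6 of the 9, every KO library lay below every control, as it did in 20.8% of the 8856 genes (40.2% had no overlap in either direction).

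**Figure D1:**
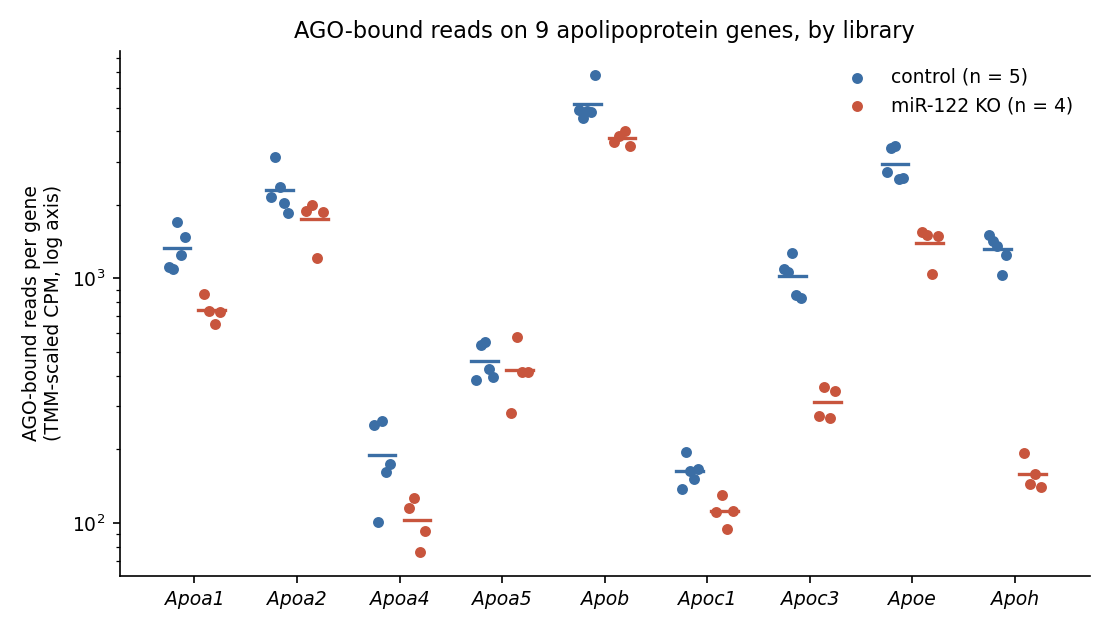
TMM-scaled AGO-bound reads (CPM, log axis) on each of the 9 genes, a point per library and a line at each group's mean, with controls (n = 5) in blue and KO (n = 4) in red. The KO points lie below all control points for Apoa1, Apob, Apoc1, Apoc3, Apoe and Apoh, and overlap them for Apoa2, Apoa4 and Apoa5.

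Per kilobase of listed region, Apoa2 had the highest level in controls, 8519 ± 1847 CPM per kb, and Apoe the next, 6260.4 ± 965 CPM per kb, and their libraries overlapped. Apoa1 (3794 ± 747) lay below both without overlap, followed by Apoc3 (2437 ± 439.9) and Apoh (2345 ± 332), which overlapped each other. Apoc1 (1161 ± 151) and Apob (1110.2 ± 201) overlapped, and so did Apoa5 (439 ± 74.2) and Apoa4 (328 ± 115), the lowest. In KO the order began with the same 3 genes, while Apoh was at 283 ± 43.1 CPM per kb, between Apoa5 (404 ± 116) and Apoa4 (177 ± 39.0), and Apoc3 at 743 ± 116 lay beside Apob (804) and Apoc1 (800.5 ± 105). By mean level 4 genes were above Apoh in controls and 7 in KO.

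Among the proteins of high density lipoprotein, Apoa1 fell and Apoa2 did not pass the test. Apoa1 (chr9:46228630-46230469 on mm10, plus strand), the main protein of that particle and the activator of Lcat, measured 1117, 1093, 1706, 1241 and 1481 CPM in the controls and 866, 739, 652 and 727 CPM in the KO libraries. The highest KO library was below the lowest control. The means were 1328 ± 262 CPM in controls and 746 ± 88.9 CPM in KO (log2 fold change -0.81, SE 0.19, adjusted p = 0.00443). None of its 5 regions held a miR-122 match. Its most covered region, chr9:46230327-46230396 in the coding sequence with an 8mer for miR-378a, took 67.3% of the gene's reads in controls and 66.4% in KO, and measured 779 ± 160.1 CPM in controls and 452 ± 59.2 CPM in KO (log2 fold change -0.80, SE 0.25, adjusted p = 0.0141). A second region in the 5′ UTR (chr9:46228925-46228994), with a 7mer-m8 for miR-29, measured 221 ± 66.8 CPM in controls and 106 ± 29.1 CPM in KO (log2 fold change -0.91, SE 0.26, adjusted p = 0.00924). Both calls were lost without control replicate 5 (adjusted p = 0.0528 and 0.0561), and that of the coding region also without KO replicate 2 (adjusted p = 0.0642).

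Apoa2 (chr1:171221564-171226379, plus strand), the second protein of high density lipoprotein, had 2159, 3139, 2366, 2027 and 1853 CPM in the controls and 1881, 1997, 1213 and 1878 CPM in the KO libraries. The groups overlapped, with KO replicate 3 lowest of all, and the difference did not pass (log2 fold change -0.29, SE 0.22, adjusted p = 0.301). It was called in 1 of 18 alternatives, with the scaling taken from genes without a miR-122 region (-0.58, adjusted p = 0.0464). Its reads lay in 2 regions. The 5′ UTR region chr1:171225269-171225338, whose 6mers match miR-16 and miR-148a, was among the most covered of the family with 5756 reads in controls and 4577 in KO (log2 fold change -0.09, SE 0.27, adjusted p = 0.808). The 3′ UTR region chr1:171226134-171226334 measured 518, 458, 679, 552 and 594 CPM in the controls and 331, 445, 292 and 458 CPM in the KO libraries. Its KO libraries all lay below the controls, yet the call was not reached (log2 fold change -0.61, SE 0.25, adjusted p = 0.0586).

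Apob (chr12:7977629-8016839, plus strand) is the large structural protein of very low density lipoprotein, and 58 of the 107 regions lay on it. Its summed level was 4863, 4533, 4818, 4775 and 6817 CPM in the controls and 3617, 3839, 4008 and 3484 CPM in the KO libraries. The groups did not overlap, and control replicate 5 was far above the other controls. The means were 5161 ± 934 CPM in controls and 3737 ± 232 CPM in KO (log2 fold change -0.53, SE 0.19, adjusted p = 0.0402). This call was lost without any 1 of control replicates 1, 3 and 5 and KO replicates 1 to 4 (adjusted p up to 0.191, at log2 -0.34 without control replicate 5), and passed in 5 of 18 alternative analyses (adjusted p from 0.00359 to 0.193).

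Along Apob, 11 of 56 tested regions were lower, 1 was higher and 44 did not pass, a share of falls below the background of 27.6% lower of 17182 regions (17.5% higher, 45.1% called), and the median was 0.12. Of the 11, 4 held a miR-122 match. The coding region chr12:8009401-8009470 (7mer-A1) had 203, 239, 181, 199.7 and 349.6 CPM in the controls and 29.6, 18.2, 17.1 and 16.3 CPM in the KO libraries. All KO libraries were far below all controls, with KO replicate 1 the highest of them (log2 fold change -3.50, SE 0.31, adjusted p = 1.68e-07). The 3′ UTR region chr12:8016303-8016372 (7mer-A1) measured 276, 257, 283, 243 and 349.6 CPM in the controls and 49.3, 54.7, 49.5 and 47.0 CPM in the KO libraries, with the KO libraries close together (log2 fold change -2.51, SE 0.24, adjusted p = 3.96e-07). A coding region with a 6mer, chr12:8012612-8012681, went from 147 ± 21.9 to 37.6 ± 2.27 CPM (log2 fold change -1.86, SE 0.24, adjusted p = 8.60e-06).

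Introns of Apob held 2 further miR-122 regions, both with a 7mer-m8. The region chr12:7992605-7992674 had 118 reads in controls and 3 in KO, a ratio of 36.4 with a 95% exact counting interval of 12.2 to 179 (log2 -5.04, adjusted p = 2.51e-06). The region chr12:7987204-7987273 had 25 reads in controls and 0 in KO, at least 7.95-fold lower against a floor of 3 reads over the KO group, and was not tested. How duplicate reads were handled is not stated, and the interval and the floor allow for counting error alone.

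One of the deepest losses on Apob lay in a region without a listed miR-122 match. The coding region chr12:8011252-8011321, with a 6mer for miR-23, had 279, 274, 307, 476 and 652 CPM in the controls and 51.1, 33.8, 29.9 and 49.0 CPM in the KO libraries. The groups were far apart (log2 fold change -3.36, SE 0.32, adjusted p = 3.21e-07), and the nearest listed miR-122 region was 1290 bases away. It was named here after its values were seen, as were the coding regions chr12:8001859-8001928, with no match of the 31 families (log2 fold change -1.54, SE 0.24, adjusted p = 6.61e-05), chr12:7979237-7979306, with a 7mer-A1 for miR-17 (log2 fold change -1.28, SE 0.26, adjusted p = 0.000625), and chr12:8012852-8013109, with a 7mer-A1 for miR-30 (log2 fold change -1.23, SE 0.23, adjusted p = 0.000328). Each of these 4 stayed called in all 18 alternative analyses. The distance to the nearest listed miR-122 region was 7472 bases for the region without a match and 7897 for the miR-17 one. The miR-30 one lay only 170 bases from the coding miR-122 region with a 6mer, which also fell (log2 fold change -1.86).

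By contrast, the most covered region of Apob, chr12:8010040-8010109 in the coding sequence with a 7mer-A1 for miR-30, had 477, 279, 311, 345 and 489 CPM in the controls and 285, 389, 541 and 425 CPM in the KO libraries. The groups overlapped throughout (log2 fold change -0.05, SE 0.27, adjusted p = 0.901). The single rise in the family was the coding region chr12:8008688-8008757 with a 6mer for miR-101, which had 14.1, 17.5, 15.8, 17.8 and 24.5 CPM in the controls and 64.5, 42.9, 44.4 and 16.3 CPM in the KO libraries. KO replicates 1 to 3 were above all controls and KO replicate 4 was below one of them (log2 fold change 1.31, SE 0.35, adjusted p = 0.00540). This call was lost without KO replicate 1 (log2 0.82, adjusted p = 0.161) and in males alone (log2 0.60, adjusted p = 0.379).

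**Figure D2:**
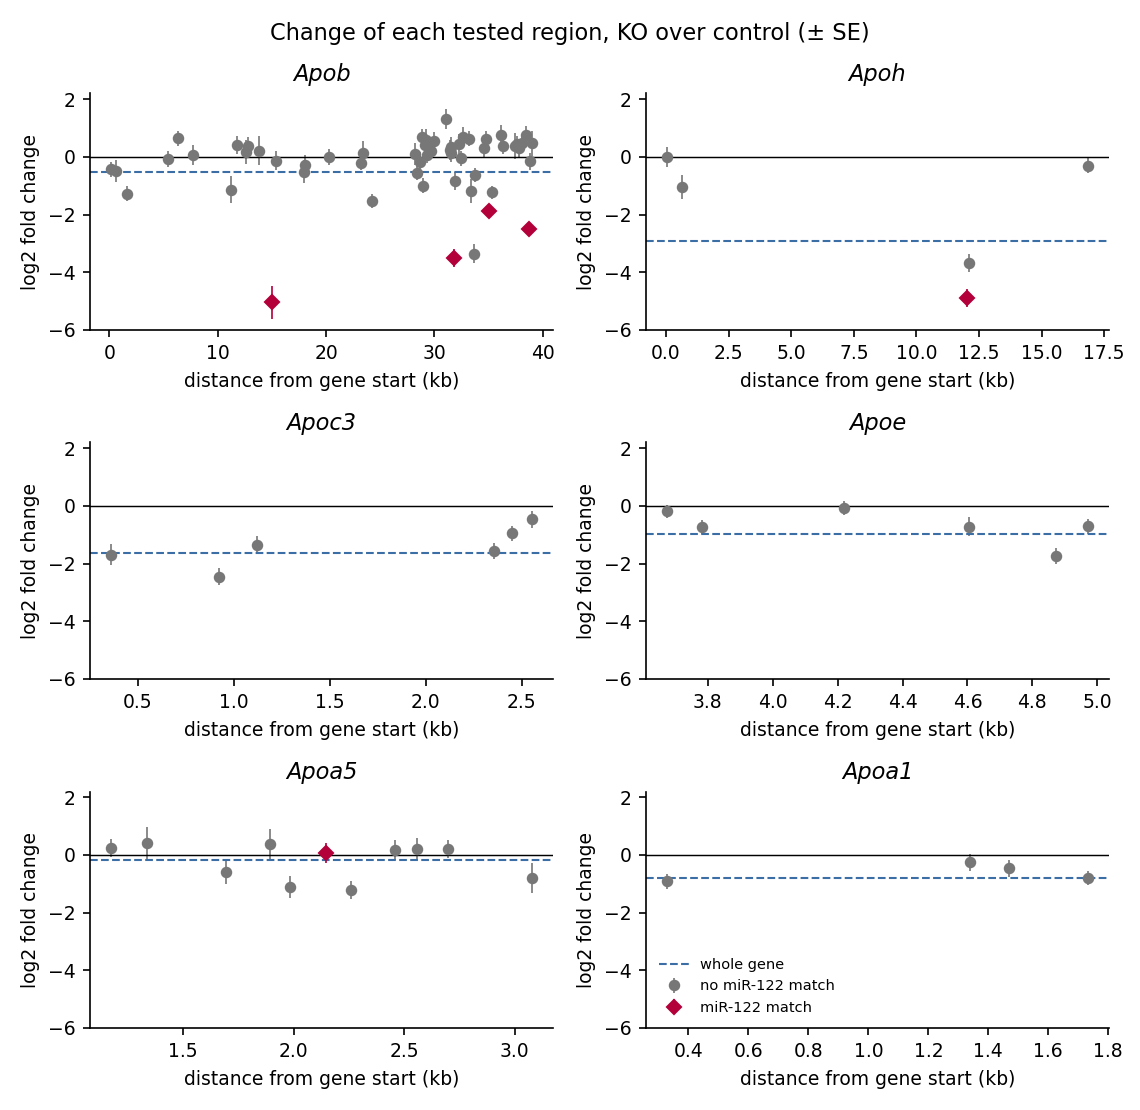
Log2 fold change, KO over control, with SE, of each tested region of 6 genes against the distance of its middle from the gene start in kb, with miR-122 matches as red diamonds and the whole gene's change as a dashed line. On Apob the 4 matched regions tested lie between -5.04 and -1.86 while most others scatter around 0; on Apoh the matched region (-4.89) and its neighbour (-3.69) lie far below the 3 others.

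Of the genes that act on lipases, Apoc3 had the largest fold change. Apoc3 (chr9:46233050-46235636, minus strand) inhibits lipoprotein lipase and slows the clearance of triglyceride-rich particles. It had 1096, 1064, 1275, 852 and 831 CPM in the controls and 273, 361, 268 and 346 CPM in the KO libraries. The highest KO library was far under the lowest control (log2 fold change -1.63, SE 0.20, adjusted p = 4.65e-05). No region of Apoc3 held a miR-122 match, and 5 of its 6 regions were lower, against 16.3% of all unmatched regions tested. Its 5′ UTR region chr9:46234676-46234745, with a 6mer for miR-126a-3p, measured 319.6, 289.5, 447, 284 and 305 CPM in the controls and 43.0, 73.9, 48.7 and 79.7 CPM in the KO libraries. All KO values were below all controls, and control replicate 3 was far above the others (log2 fold change -2.46, SE 0.30, adjusted p = 3.94e-06). The share of the gene's reads in its 5′ UTR regions was 47.0% ± 4.60 in controls and 31.0% ± 6.20 in KO, and in its 3′ UTR regions 18.4% ± 2.02 and 33.2% ± 2.03, without overlap in either class.

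Apoc1 (chr7:19689480-19692659, minus strand), a small inhibitor of lipases and of particle uptake, had 137, 194, 164, 151 and 166 CPM in the controls and 111, 131, 94.8 and 112 CPM in the KO libraries. The groups did not overlap (log2 fold change -0.52, SE 0.18, adjusted p = 0.0290). The call was lost without control replicate 4 or 5 or KO replicate 1 or 3 (adjusted p up to 0.111), and passed in 10 of 18 alternatives (adjusted p from 0.00218 to 0.129). Of its 2 regions, the one in the 3′ UTR, chr7:19689493-19689562, with no match of the 31 families, was lower (log2 fold change -1.19, SE 0.31, adjusted p = 0.00412). The coding region chr7:19691941-19692010, with a 6mer for miR-17, had 81.9 ± 23.2 CPM in controls and 74.5 ± 8.63 CPM in KO (log2 fold change -0.04, SE 0.26, adjusted p = 0.921).

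Apoa4 (chr9:46240844-46243458, plus strand), a member of lipid-rich particles that the intestine also makes, had 251, 101, 262, 161 and 174 CPM in the controls and 115, 126, 76.2 and 92.5 CPM in the KO libraries. Of 8 enterocyte markers 2 were in the map: Vil1 was at 2.28 ± 2.46 CPM in controls and 72.9 ± 13.7 CPM in KO, and Fabp2 at 4.45 ± 4.79 and 3.97 ± 2.88 CPM; their part was not tested. Control replicate 2 of Apoa4 lay within the range of the KO libraries (log2 fold change -0.80, SE 0.27, adjusted p = 0.0312). The call was lost without any 1 of control replicates 1, 3, 4 and 5 and KO replicates 1 and 3 (adjusted p up to 0.120), and passed in 9 of 18 alternatives (from 0.00431). Most of its reads lay in the 5′ UTR region chr9:46241057-46241126, whose only listed match is a 6mer of a class the map names miR-122-5p-B; the labels and headers do not say what defines that class. It measured 151, 54.8, 156, 90.6 and 102 CPM in the controls and 41.2, 47.4, 21.3 and 59.2 CPM in the KO libraries. KO replicate 4 overlapped control replicate 2, and the call was kept in all 18 alternatives (log2 fold change -1.35, SE 0.36, adjusted p = 0.00551). The other tested region, chr9:46242966-46243035 in the coding sequence, had 76 reads in controls and 78 in KO (log2 fold change 0.07, SE 0.42, adjusted p = 0.905).

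Apoa5 (chr9:46268608-46271921, plus strand), which promotes the action of lipoprotein lipase, did not pass (log2 fold change -0.17, SE 0.24, adjusted p = 0.593). It had 385, 532, 549, 425 and 397 CPM in the controls and 281, 577, 413 and 415 CPM in the KO libraries. The KO libraries ran from below the lowest control to above the highest, with the female, KO replicate 1, lowest. Without that library the estimate was 0.20 and in males alone 0.15. Its 3′ UTR region with a 6mer for miR-122, chr9:46270719-46270788, which also holds a 7mer-m8 for miR-24, measured 25.3, 19.7, 31.6, 25.4 and 18.7 CPM in the controls and 21.5, 36.5, 25.6 and 16.3 CPM in the KO libraries. The groups overlapped fully (log2 fold change 0.06, SE 0.34, adjusted p = 0.902). It was the only tested miR-122 region of the family that did not fall.

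In the 3′ UTR of Apoa5, the region 43 bases further on, chr9:46270832-46270901, with a 7mer-m8 for miR-125, had 67.6, 61.4, 92.1, 81.3 and 64.7 CPM in the controls and 17.9, 42.9, 40.1 and 42.9 CPM in the KO libraries. All KO libraries were below all controls (log2 fold change -1.22, SE 0.31, adjusted p = 0.00353), and without KO replicate 1 the adjusted p was 0.0573. The most covered region, chr9:46271239-46271376, with matches to let-7, miR-125 and miR-24 (8mer), had 99.8 ± 11.3 CPM in controls and 132 ± 51.4 CPM in KO and did not pass (log2 fold change 0.21, SE 0.31, adjusted p = 0.616). The coding region chr9:46269749-46269818, with a 7mer-m8 for miR-22, had 31.5 ± 2.66 CPM in controls and 36.4 ± 12.3 CPM in KO (log2 fold change 0.25, SE 0.30, adjusted p = 0.541).

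Apoe (chr7:19696244-19701310, minus strand), the ligand by which remnant particles are taken up through the low density lipoprotein receptor family, was lower in KO. It is also made by macrophages and astrocytes, and the summed macrophage markers were 579 ± 33.3 CPM in controls and 854 ± 127 CPM in KO, whose part in its level was not tested. Its level was 2721, 3418, 3464, 2555 and 2585 CPM in the controls and 1545, 1502, 1045 and 1488 CPM in the KO libraries. All KO libraries were below all controls, with KO replicate 3 lowest (log2 fold change -0.98, SE 0.19, adjusted p = 0.00128). KO replicate 4, with the most neuronal reads, stood at 1.09 times the mean of KO replicates 1 to 3, and without it the log2 fold change was -1.03. The loss was deepest in the 3′ UTR region chr7:19696376-19696496, with a 6mer for miR-193, which had 1012, 1039.7, 1196, 921 and 868 CPM in the controls and 276, 258, 202 and 441 CPM in the KO libraries. The groups were well apart (log2 fold change -1.73, SE 0.28, adjusted p = 8.75e-05). Of the 5 other regions 2 were also called lower: one in the 3′ UTR (chr7:19696305-19696374), a call lost without control replicate 2 or 5 or KO replicate 1, 2 or 3 (adjusted p up to 0.263), and one in the coding sequence (chr7:19697493-19697562), lost without control replicate 4 or 5 or KO replicate 3 (adjusted p up to 0.0732). The share of the gene's reads in the 3′ UTR went from 64.3% ± 3.06 to 53.2% ± 9.01, with overlap.

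Apoh (chr11:108395297-108414396, plus strand) encodes beta-2-glycoprotein I, a plasma protein that binds phospholipids. It had the largest fold change of the 9 genes. Its level was 1511, 1428, 1351, 1031 and 1244 CPM in the controls and 193, 144, 158 and 139.8 CPM in the KO libraries. Every KO library was far under every control (log2 fold change -2.92, SE 0.17, adjusted p = 2.08e-07). Most of its reads lay in 1 coding region, chr11:108407291-108407360, which took 71.9% of the gene's reads in controls and 16.8% in KO. That region measured 1009.6, 840.1, 849, 647 and 767 CPM in the controls and 40.3, 11.9, 23.1 and 24.5 CPM in the KO libraries. Every KO library was far below every control (log2 fold change -4.89, SE 0.31, adjusted p = 1.28e-08).

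This Apoh region held only a 6mer for miR-122, the shortest class. It also held a 7mer-m8 for miR-19 and one for miR-130, whose 6-base cores start 3 and 2 bases before that of miR-122 and overlap it, the 3 cores spanning 9 bases, so reads there cannot be assigned to one of the 3 families by position. The seeds of miR-130a and miR-19b are in capitals in the sequences above. The mean phyloP conservation score of the 6 bases was -0.356 for the miR-122 match, 0.242 for miR-130 and 1.33 for miR-19 in the authors' deposited table. The next coding region, chr11:108407373-108407442, 12 bases on, without a miR-122 match and with a 6mer for miR-17, had 163, 193, 175, 143 and 203 CPM in the controls and 23.3, 9.12, 8.54 and 8.17 CPM in the KO libraries. It fell as well (log2 fold change -3.69, SE 0.32, adjusted p = 1.25e-07).

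The other regions of Apoh did not pass. The 5′ UTR region chr11:108395317-108395386 had 47.9, 26.3, 67.6, 28.8 and 28.8 CPM in the controls and 31.4, 36.5, 31.6 and 47.0 CPM in the KO libraries. Its groups overlapped (log2 -0.01, adjusted p = 0.980). The coding regions chr11:108412101-108412170 (log2 -0.31, adjusted p = 0.372) and chr11:108395913-108395982 (log2 -1.04, adjusted p = 0.0541) followed. An intronic region with a 7mer-A1 for miR-122, chr11:108397584-108397653, had 12 reads in controls and 0 in KO, at least 3.65-fold lower, and was not tested. The 5′ UTR share of the gene's reads was 3.45% ± 1.33 in controls and 26.0% ± 7.54 in KO, without overlap.

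**Figure D3:**
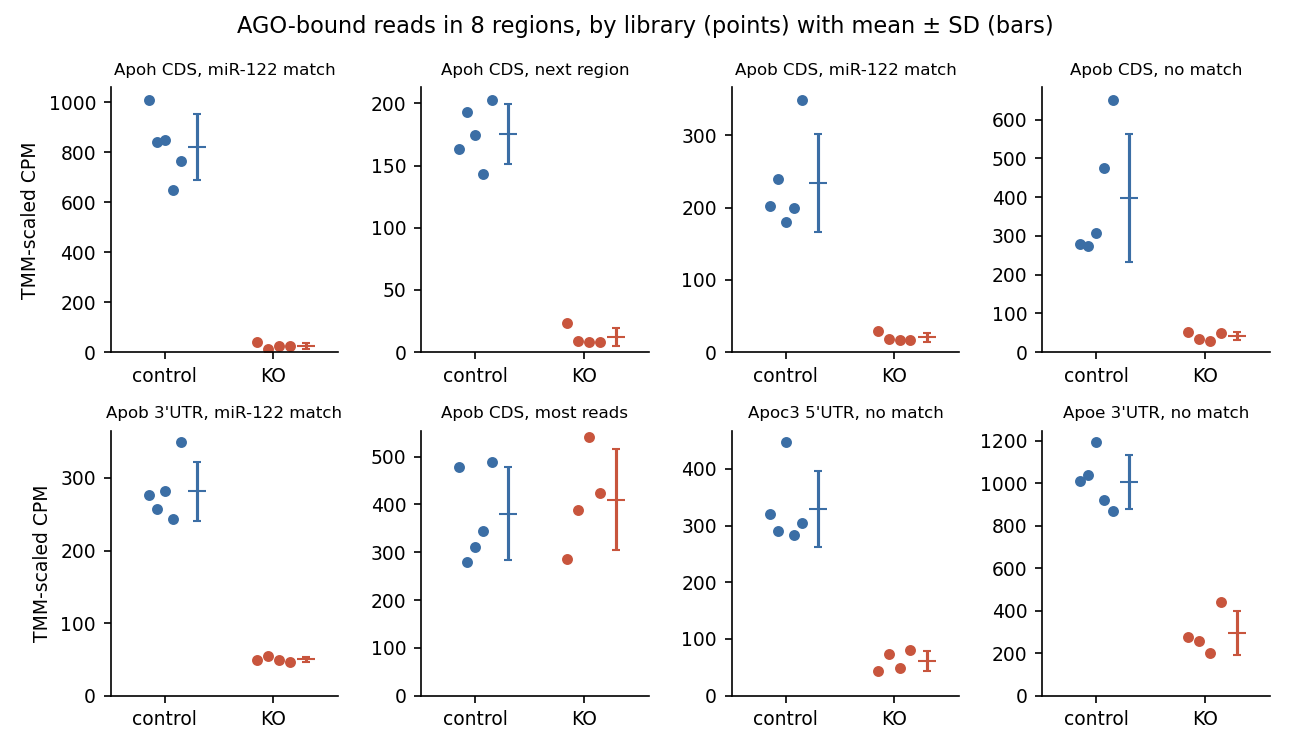
TMM-scaled CPM in 8 regions, a point per library, with mean ± SD beside them, for controls (n = 5, blue) and KO (n = 4, red); each panel has its own axis from 0. The groups overlap only in the most covered region of Apob, and the regions without a miR-122 match in Apob, Apoc3 and Apoe do not overlap either.

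To see what remained outside the miR-122 regions, the regions with a miR-122 match were removed from every gene and the genes were tested again. Only 3 of the 9 genes held such regions, so the counts of the others stayed the same. Again 7 of 9 were lower and 0 higher, against 16.7% lower and 17.3% higher of 8404 genes (34.0% called). This table has its own library scaling, under which a gene with unchanged counts moves by about -0.23 (log2), for example Apoa1 from -0.81 to -1.04. Values on the scaling of the full gene table are therefore set beside each other here. On that scaling 6 of the 9 were lower, against 1015 lower and 2162 higher of 8404 genes, whose median was 0.28. Rises made up 68.1% of the called genes, against 50.9% on the table's own scaling. Of the 3 genes with miR-122 regions, Apoh went from -2.92 to -1.39 (SE 0.15, adjusted p = 3.93e-05), Apob from -0.53 to -0.34 (SE 0.20, adjusted p = 0.191) and Apoa5 from -0.17 to -0.18 (adjusted p = 0.583).

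Apoh without its miR-122 regions still had 365, 404, 386, 299 and 365 CPM in controls and 147, 131, 133 and 114 CPM in KO. The groups did not overlap. These reads include the coding region 12 bases from the miR-122 one, with 713 reads in controls and 50 in KO. It was the 1 region called lower among the 4 tested that remained, and 3 did not pass. The miR-122 regions held 72.1% ± 2.11 of Apoh's reads in controls and 16.8% ± 5.97 in KO, and 80.9% of the drop in its share of library counts lay in them. For Apob those figures were 15.6% ± 1.79 and 3.21% ± 0.39, with 63.3% of the drop, and the remaining reads overlapped between groups. Whether Apob was called without its miR-122 regions depended on the scaling: on the table's own it was -0.57 (adjusted p = 0.0380), a call lost without any 1 of 8 libraries, control replicate 2 being the exception (adjusted p up to 0.144). With the miR-122-5p-B regions removed too, Apoa4 was no longer called (-0.29, adjusted p = 0.495). On the table's own scaling its call was also lost without KO replicate 1 (adjusted p = 0.0625), and Apoa2 was called without KO replicate 4 (-0.60, adjusted p = 0.0445).

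**Figure D4:**
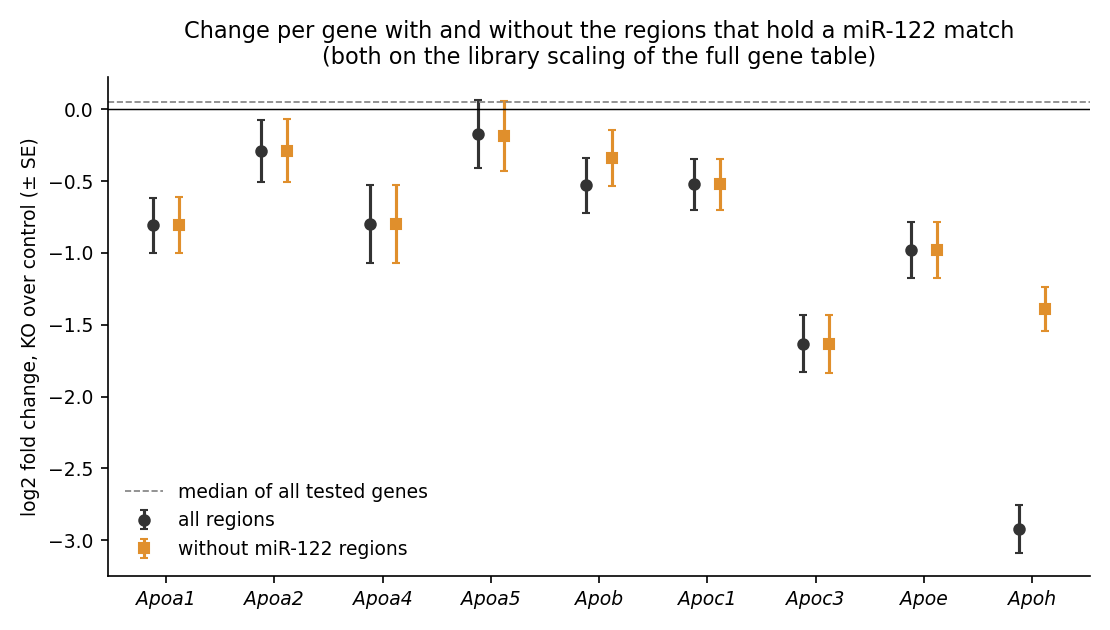
Log2 fold change, KO over control, with SE, of each gene over all its regions (black) and without the regions that hold a miR-122 match (orange), both on the full gene table's scaling. The dashed line is the median of all genes tested over all their regions, 0.05. Without the miR-122 regions the median on this scaling was 0.28, which is not drawn. Apoh moves from -2.92 to -1.39 and Apob from -0.53 to -0.34, and the other points lie beside each other.

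Across the family, 94 of the 107 regions had enough reads to be tested, and 27 were lower and 1 higher (background 27.6% lower and 17.5% higher of 17182 regions, 45.1% called; with upper quartile scaling rises made up 49.3% of all called regions, against 38.8%). The single rise became 9 with upper quartile factors or library totals, and without KO replicate 4 there were 29 lower and 3 higher. Among the 6 tested regions with a miR-122 match 5 were lower, where 89.8% of 2637 such regions of all genes were lower and 1.29% higher (91.1% called). Among the 88 without one, 22 were lower and 1 higher, where 16.3% of 14545 such regions were lower and 20.4% higher (36.8% called). Their median was -0.08, against 0.22 over those 14545. By place in the transcript, 13 of 67 unmatched coding regions were lower and 1 higher, where 23.5% and 9.20% of those of all genes were (32.7% called). In the 3′ UTR 5 of 14 were lower and 0 higher, against 9.95% and 30.3% (40.3% called), and in the 5′ UTR 4 of 7 and 0, against 25.9% and 12.6% (38.5% called). The family's reads lay more in coding sequence than those of the map as a whole, 57.3% ± 3.98 against 38.3% ± 1.64 in controls and 59.4% ± 4.76 against 27.0% ± 3.53 in KO. In each of these pairs the values come from the same libraries, and Apob alone holds 51 of the 75 coding regions.

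A test of each region against its gene as a whole removes a change that the whole transcript shares. The gene's change includes the region tested, so a region with most of the reads sets much of its own baseline. For Apoh the whole gene's log2 fold change was -2.92, and -1.39 without its miR-122 regions. By this test 12 of 94 regions were lower than their gene and 23 higher (background 15.9% each way of 12830 regions, 31.8% called). On Apob 8 were lower and 17 higher, led by log2 changes relative to the gene at the coding miR-122 region of -3.03 (adjusted p = 2.53e-16), at the intronic one of -4.57 (adjusted p = 7.63e-11), at the region with the miR-23 match of -2.88 (adjusted p = 4.70e-16) and at the 3′ UTR miR-122 region of -2.04 (adjusted p = 7.71e-09). Each of these kept its call in all 17 alternatives. Other Apob calls were less stable: falls were kept in as few as 10 of 17 and rises in as few as 8. On Apoh the miR-122 coding region was at -1.94 (adjusted p = 1.15e-06) relative to the gene, while the 5′ UTR region was at 2.94 (adjusted p = 8.22e-10) and the last coding region at 2.65 (adjusted p = 6.81e-10). The CPM of these last 2 regions did not pass the test between groups, as given above, so they took a larger share of a smaller total.

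On Apoc3, relative to the gene, the 5′ UTR region was at -0.88 (adjusted p = 0.0257) and the last 3′ UTR region at 1.12 (adjusted p = 0.00525). On Apoe the 3′ UTR region with the miR-193 match was at -0.81 (adjusted p = 0.0358), and 2 coding regions were called higher, in 9 and 5 of 17 alternatives. Of these, chr7:19697056-19697125 lost its call without control replicate 4 or 5 or KO replicate 1 or 2, and chr7:19697600-19697669 without any library but KO replicate 2 or 4. On Apoa5 the region with the miR-125 match was at -1.10 (adjusted p = 0.0108). On Apoa1, Apoa2, Apoa4 and Apoc1 no region departed. These calls were less stable than those named on Apob and Apoh. The Apoc3 5′ UTR call was lost without control replicates 4 or 5 or KO replicates 1 or 3, and the Apoe 3′ UTR call without any library but control replicate 2 and KO replicate 4. The calls of the last Apoc3 region and of the Apoa5 region were lost without control replicate 4 (adjusted p up to 0.143 over all these).

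Counts of called regions per family stand beside 27.6% lower and 17.5% higher over all regions tested. Over the regions without a miR-122 match, the closer background for other families, it was 16.3% lower and 20.4% higher. Of the 107 regions, 85 held a match of at least 1 of the 31 families and 22 held none. The 10 regions with a miR-22 match had 1 lower among 9 tested (median log2 fold change -0.29), the 8 with a miR-15/16 match 1 lower of 7 (-0.43), the 7 with a miR-24 match 0 of 7 (0.21) and the 7 with a miR-148 match 0 of 7 (-0.09). For miR-30 it was 2 of 7 (-0.05) and for miR-378a 2 of 6 (-0.62). For miR-103/107 it was 2 of 6 (-0.53), for miR-29 1 of 6 (0.02), for miR-23 1 of 6 (0.03) and for miR-193 1 of 6 (-0.12). The other families, miR-122 aside, had fewer than 6 regions each. The single rise lay among the 5 regions with a miR-101 match.

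The counts for the lists that follow stand beside 23.7% lower and 21.2% higher over all 8856 genes, with a median of 0.05. Of 17 other apolipoproteins 12 were tested, with 7 lower, 1 higher and a median of -0.88. Apof, an inhibitor of lipid transfer, was at -1.79 (adjusted p = 4.2e-06), Saa4, a constitutive serum amyloid A, at -2.82 and Apon at -1.18. Clu, also called apolipoprotein J and made in brain as well, rose by 1.35, from 459 ± 102 to 1065 ± 198 CPM; the part of the neuronal reads in this was not tested. Genes of lipoprotein assembly had 5 of 18 lower, a share near that background, 0 higher and a median of -0.06. They were led by Tm6sf2, needed to load lipid onto Apob particles (-3.39), Cideb, which acts in particle maturation (-1.50), and Plin2, a lipid droplet coat protein (-1.42; without KO replicate 1 -0.87, adjusted p = 0.0515). The genes that remodel particles in plasma had 7 of 15 lower and 1 higher (median -0.73), with Bmp1, a proteinase that processes the Apoa1 precursor, at -2.92, Lcat, which esterifies cholesterol on Apoa1 particles, at -1.90, and Lpl, lipoprotein lipase, higher at 0.95, a call lost without KO replicate 1 (adjusted p = 0.188) or control replicate 4 (adjusted p = 0.0580).

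Receptors and uptake genes had 4 of 18 lower and 2 higher (median -0.50), against 23.7% and 21.2% of all genes: Lrp10 (-3.24), the lipolysis-stimulated receptor Lsr (-1.40) and the sorting nexin Snx17 (-0.88) were lower, Sorl1 (1.86) and the syndecan Sdc1 (0.58) higher. Sorl1 was at 68.8 to 256 CPM in KO, with the highest value in KO replicate 4, and was at log2 1.34 (adjusted p = 0.000358) without that library. The Sdc1 call was lost without control replicate 4 or 5 (adjusted p = 0.0736 and 0.0660). In the efflux list 4 of 12 were lower and 1 higher (median -0.07), among them the bile salt pump Abcb11 (-1.11), Pemt, which makes phosphatidylcholine (-1.18), and the sterol transporter Abcg8 (-1.18), with Soat1 higher (0.74), a call lost without any library but control replicates 2 and 5 and KO replicate 4 (adjusted p up to 0.432). Of the transcription factors that act on apolipoprotein genes 7 of 19 were lower and 2 higher (median -0.36), with Srebf1 at -2.31 and Creb3l3, an activator of lipid genes, at -1.20, and with Rora (1.04) and Cebpb (1.03) higher, the last not without control replicate 4 (adjusted p = 0.0800). Many genes of these lists hold miR-122 matches themselves: 14 of the 18 assembly genes tested did, and 12 of the 19 transcription factors tested.

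The gene whose profile over the 9 libraries was nearest to each member's differed from gene to gene. Likeness was measured as the root mean square difference of mean-centred log2(CPM + 1), over 6853 genes. The nearest was Tank for Apoa1 (0.101), Isoc2a for Apoa2 (0.111), Hnf4a for Apoa4 (0.228), Slc7a2 for Apoa5 (0.111), Fkbp15 for Apob (0.104), Qrich1 for Apoc1 (0.0988), Myo18a for Apoc3 (0.0936), Pdp2 for Apoe (0.143) and Utp3 for Apoh (0.150). No member was another member's nearest; the closest pair within the family was Apoa2 and Apoc1 (0.190), Apoc1 ranking 11 among the genes near Apoa2. These 9 libraries share the genotype difference, so likeness reflects it, and it is a description.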

How the data were processed

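AGO-bound RNA of 9 mouse livers was read from 1 deposited matrix, whose columns the labels tie to mice. Per the file headers, the authors gave raw read counts per region and mouse, a log2 ratio of control over KO, and a phyloP conservation score for each seed match. Reads were aligned with Bowtie2 to mm10, per the submitters' processing notes. The peak caller, versions, duplicate handling, strand rule and treatment of near-copies are not stated, so Saa4 is uncertain. The authors' log2 value, which differs from the ratio of their counts by 1 constant (0.337), was used in no test.

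Rows repeated for several seed matches were reduced to 92645 unique regions and summed per gene symbol. Regions without a usable symbol, 31 month-form names included, held 11.1% of counts and stayed out of the gene table. Counts passed filterByExpr, were scaled by TMM and tested with edgeR 4.0.16 (quasi-likelihood, sex and genotype as terms, R 4.3.3), with diffSpliceDGE for regions against their gene and a Benjamini-Hochberg threshold of 0.05. Library totals ran from 445912 to 1170130. Labels make each library 1 mouse, and replicates differed from each other by more than sampling of reads gives (chi-square over its degrees of freedom, 2.00 to 6.42 across pairs). Alternatives covered scaling (DESeq2 1.42.0 size factors, upper quartile, totals, unmatched rows), the filter, sex, a replicate block, DESeq2's test and each library left out (for genes of the other lists, chosen after seeing the data); the scripts were tested on simulated data. Figures used matplotlib 3.10.9.

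Members and gene lists were chosen with earlier results of these data known. Named were all members, their most covered region, miR-122 regions of at least 10 reads, the region of lowest adjusted p in each direction, up to 3 genes per list and direction, and the nearest gene in pattern (mean of at least 20 CPM); other regions and the 3 neuron genes were named after their values were seen. Some genes that this rule would name are not reported here.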

Additional observations from a re-analysis of the deposited data

Results flagged for a closer look

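Of 96 groups of 4 or 5 libraries checked, 10 held a library set apart from the rest of its group by a gap that is large for the group's range; chance flags about 1 group in 20. For Apoa2, KO replicate 3 had 1213 CPM against 1878 to 1997 in the other KO libraries, and its 5′ UTR region had 823 CPM against 1326 to 1341. The same library had 1045 CPM for Apoe against 1488 to 1545. For Apob, control replicate 5 had 6817 CPM against 4533 to 4863 in the other controls, and 5803 against 3692 to 4121 without the miR-122 regions. In the Apob coding region with a 7mer-A1 for miR-122, KO replicate 1 had 29.6 CPM against 16.3 to 18.2. The same KO library had 17.9 CPM in the Apoa5 region with a miR-125 match, against 40.1 to 42.9. In the Apoc1 coding region control replicate 2 had 123 CPM against 66.0 to 75.5. In the Apoc3 5′ UTR region control replicate 3 had 447 CPM against 284 to 319.6. The summed neuron markers of KO replicate 4 were 9913 CPM against 1875 to 2413.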

How the results depend on the processing

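Apoa1, Apoc3, Apoe and Apoh were called lower in all 18 alternatives of the gene test, and in all 20 without miR-122 regions. Apoa1, Apoc3 and Apoe hold no miR-122 region, so for them both sets rest on the same counts. The count of lower genes went from 7 to 4 with upper quartile factors, with library totals and in males alone, and ranged from 4 to 7 as each library was left out. It was 8 with the scaling from genes without a miR-122 region, Apoa2 being added. Over all 8856 genes the lower calls were 2100 in the main test and 2787 with that scaling. They were 1874 with upper quartile factors, 1789 with library totals and 1639 of 9440 in males alone. For Apoa5, never called, the estimate turned to 0.15 in males alone and ran from -0.30 to 0.20 with a library left out, and without miR-122 regions it was 0.0166 in males alone. Regions higher went from 1 to 9 with upper quartile factors and with library totals, to 6 without sex, to 8 with the replicate block and to 0 in males alone, and ranged from 1 to 5 with a library left out. Regions higher than their gene went from 23 to 15 without the filter and to 10 in males alone, with 12 to 27 as libraries were left out, and regions lower than their gene gave 7 to 13. The cause was not tested. Replicate numbers were shared by the groups, but the deviations of same-numbered libraries correlated at -0.09 to 0.01, so they share only a number. With the replicate block in place of sex 6 genes were lower, 7 without miR-122 regions, and 24 regions were lower and 8 higher. Depth limits the thin regions, since 13 of 107 had too few reads to test.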
